A study of Mus musculus with 4 samples.

Results

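Histone gene transcripts were followed in mouse dendritic cells derived from bone marrow, by RNA-seq of 4 libraries of ribosome-depleted total RNA. Protein-coding genes were taken by symbol: those whose name starts with Hist1h, Hist2h, Hist3h or Hist4h are called cluster genes, and those named H1, H2 or H3 followed by a or f are called variant genes. This gave 63 genes (53 cluster and 10 variant) of the 13685 genes listed in at least 1 of 3 comparison tables, and 57 of them (48 cluster and 9 variant) were listed in all 3. Another 14 cluster symbols of the annotation used here, GENCODE M21, were listed in no table.

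Marrow of C57BL/6 mice, 4 weeks of age, had been cultured for 7 days in GM-CSF (10 ng/ml) and IL-4 (10 ng/ml) in every group. The groups were cells given CAF.CM that had been pre-incubated with an antibody to Wnt2 (CAF.CM+Wnt2 Ab, the antibody library below), cells given CAF.CM alone, cells given the secreted ligand Wnt2, and cells in control medium. CAF.CM is the culture medium of CAFs, the usual abbreviation for cancer-associated fibroblasts, and no group received an antibody without CAF.CM. The series text speaks of triplicates, but each group has 1 column of values, called a library here. A difference below is therefore one between 2 libraries, with no replicates to check it and no p-value.

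Cluster histone genes are small and mostly without introns, and they supply the bulk of the histones that package newly made DNA in S phase. Their mRNAs typically end in a conserved stem-loop bound by the stem-loop binding protein Slbp instead of a poly(A) tail, so libraries made from total RNA record them where poly(A) selection would lose most. Variant histones, such as the H3.3 genes H3f3a and H3f3b, often have introns, carry poly(A) tails and are made throughout the cell cycle, also in cells that no longer divide. Some cluster genes can also give longer, polyadenylated transcripts, which has been described in differentiated cells.

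The stem-loop sequences are shown because they mark the replication-type mRNA and because near-identical copies make single cluster genes hard to measure. Each line gives the sense strand of the GENCODE M21 transcript, 5′ to 3′, with the 6-base-pair stem and its 4-base loop in capitals.
Hist1h1e: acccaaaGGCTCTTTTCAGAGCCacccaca
Hist1h1c: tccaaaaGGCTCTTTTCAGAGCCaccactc
Hist1h3e: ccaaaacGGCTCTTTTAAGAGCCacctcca
Hist1h3f: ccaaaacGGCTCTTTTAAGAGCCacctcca
Hist1h4i: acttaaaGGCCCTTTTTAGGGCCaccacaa
Hist1h4d: aaccaaaGGCCCTTTTCAGGGCCactacct
Hist1h2bf: acccaaaGGCTCTTTTCAGAGCCacctacc
Hist2h2aa1: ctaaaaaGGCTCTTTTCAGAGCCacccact
Hist2h2aa2: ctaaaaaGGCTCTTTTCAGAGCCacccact
H2afx: ccacaaaGGCCCTTTTAAGGGCCaccacct

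The motif was found in 47 of the 100 annotated genes that match the rule, whether listed or not. Over the whole annotation it was found in 154 of 21951 protein-coding genes (0.702%). H2afx, the variant that is phosphorylated at DNA breaks, was the 1 variant gene with it. The copies Hist2h2aa1 and Hist2h2aa2 had the same 30 bases, as did Hist1h3e and Hist1h3f. Many transcript models stop at the stop codon, and such a model without the motif says nothing about the mRNA. Others without the motif hold many bases outside the coding sequence, such as 2242 in the model of Hist2h2be.

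The regions before the transcription start were read for 3 members whose ratios are described below. RefSeq windows of GRCm38.p6 (250 bases before to 50 bases after the start) were matched by gene ID for 57 of the 63 members, which have 58 windows. The TATA box letters TATAAA, the box with the letters CCAAT and the octamer with the letters ATTTGCAT were searched on both strands, and none of the 3 is contained in another. The lines below give the bases before the start, 5′ to 3′ on the gene's strand, with any of the 3 motifs in capitals. Hist1h3e lies at chr13:23562386-23562635, Hist1h1e at chr13:23622559-23622808 and Hist1h2bf at chr13:23574208-23574380, all on the minus strand, and the last window stops before the start of the divergent neighbour Hist1h2ad.
Hist1h3e: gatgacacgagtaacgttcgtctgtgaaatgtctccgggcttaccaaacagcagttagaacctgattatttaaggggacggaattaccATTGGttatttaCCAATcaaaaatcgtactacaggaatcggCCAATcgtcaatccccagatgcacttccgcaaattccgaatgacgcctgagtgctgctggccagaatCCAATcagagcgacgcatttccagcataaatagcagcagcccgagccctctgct
Hist1h1e: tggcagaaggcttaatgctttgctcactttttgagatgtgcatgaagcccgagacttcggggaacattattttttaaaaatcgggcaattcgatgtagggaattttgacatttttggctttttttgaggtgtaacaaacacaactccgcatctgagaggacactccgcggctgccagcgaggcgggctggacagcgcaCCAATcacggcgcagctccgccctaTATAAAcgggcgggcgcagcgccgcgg
Hist1h2bf: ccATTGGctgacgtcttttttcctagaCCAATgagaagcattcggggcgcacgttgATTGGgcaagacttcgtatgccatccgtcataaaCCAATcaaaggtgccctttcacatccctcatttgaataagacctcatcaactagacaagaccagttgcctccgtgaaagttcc

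Of the 49 cluster windows, 41 (83.7%) held CCAAT, against 6 of 9 variant windows and 37.4% of all 32851 RefSeq windows. Every cluster window of H1, H2A, H2B and H3 genes held it, but only 3 of 11 windows of H4 genes (27.3%). TATAAA was in 29 cluster windows (59.2%), in 1 variant window and in 13.6% of all windows. The octamer was in 11 cluster windows (22.4%), all of H2A or H2B genes, in 1 variant window and in 1.74% of all windows. H2A and H2B genes often start in opposite directions from one short region, so their windows overlap and are not independent. A match is a description of these letters only.

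The libraries differed in depth, which sets how precise each ratio is. The deposited CPM values (reads scaled to a common library size) are whole multiples of what 1 read is worth, and the recovered reads in listed genes were 22791494 in the antibody library, 25225220 in CAF.CM, 154399767 in Wnt2 and 143071376 in control. Ratios are log2 ratios of CPM after adding a prior count of 2, and the words called higher and called lower are kept for genes past 2-fold. Intervals are 95% exact conditional binomial intervals and cover counting error only. The cells were checked against dendritic cell markers: Itgax, the CD11c gene, stood at 30.3 CPM in the antibody library, 47.7 in CAF.CM, 223 in Wnt2 and 888 in control. H2-Ab1, an MHC class II gene, stood at 521 CPM in the antibody library, 483 in CAF.CM, 71.0 in Wnt2 and 489 in control, and Cd209a was listed in no table. Of the dendritic cell list, 0 of 8 listed genes were called with the antibody (median -0.39), 2 of 8 were lower with CAF.CM (median -0.10) and 4 of 9 were lower with Wnt2 (median -0.61). Of the other marker lists, macrophage genes were all listed, and 5 of 9 were called lower with Wnt2, 5 with CAF.CM and 4 with the antibody. Over all listed genes, 2.93% were called lower with Wnt2, 8.69% with CAF.CM and 3.65% with the antibody. B cell and erythroid genes were listed in no table, and at most 5 of 8 fibroblast, 1 of 8 neutrophil and 2 of 5 T cell genes were. Dcn, a fibroblast matrix gene, stood at 13.9 CPM in the antibody library, 10.7 in CAF.CM, 1.01 in Wnt2 and 0.509 in control. The other 2 fibroblast genes listed with CAF.CM, Pdgfrb and Acta2, had ratios of 0.07 and 0.20 over control, and -0.45 and -0.96 with the antibody. In bulk RNA a different share of cells and a different amount of RNA per cell cannot be told apart, and the part of other cell types in the histone levels was not tested.

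Set against control, cluster and variant histones differed in opposite directions in their summed levels. The 48 cluster genes listed in all tables summed to 1186 CPM in the antibody library, 926 in CAF.CM, 993 in Wnt2 and 853 in control. Control was the lowest and the antibody library the highest. The 9 variant genes summed to 755 CPM in the antibody library, 743 in CAF.CM, 843 in Wnt2 and 944 in control, with control the highest. Reads of variant genes therefore came to 63.7% of the cluster reads in the antibody library, 80.2% in CAF.CM, 84.9% in Wnt2 and 111% in control.

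The summed cluster ratio was 0.22 for Wnt2 against control (interval 0.21 to 0.23), 0.12 for CAF.CM against control (0.10 to 0.14) and 0.36 for antibody against CAF.CM (0.33 to 0.38). The summed variant ratio was -0.16 for Wnt2, -0.35 for CAF.CM and 0.02 for the antibody. The Wnt2 and CAF.CM comparisons share the control library, and the CAF.CM and antibody comparisons share the CAF.CM library, so they are not independent of each other. The median over all listed genes was -0.02 with Wnt2, -0.04 with CAF.CM and -0.04 with the antibody.

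**Figure D1:**
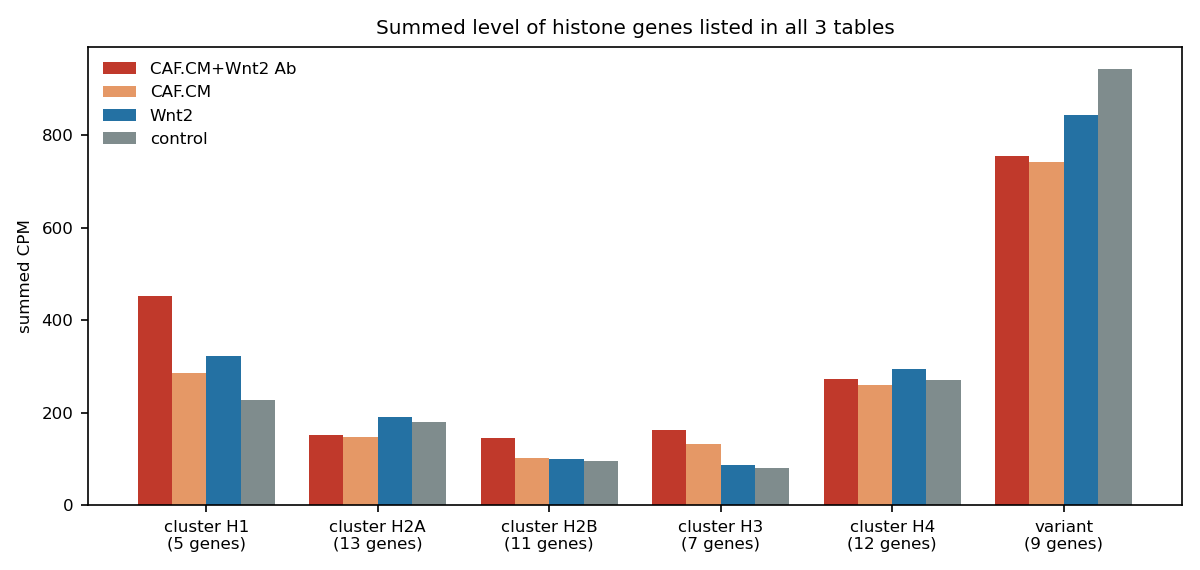
Summed CPM (y axis, from 0) of the cluster genes of each histone class and of the variant genes, over genes listed in all 3 tables; each bar is 1 library, so there are no error bars. H1 sums are 453 CPM in the antibody library and 228 CPM in control, while variant sums are highest in control at 944 CPM.

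The composition of the libraries differed as well. Protein-coding genes took 72.4% of the reads of the 12473 genes listed in all tables in the antibody library, 75.8% in CAF.CM, 80.1% in Wnt2 and 81.2% in control. Malat1, a nuclear long non-coding RNA without a usual poly(A) tail, took 3.86% of them in the antibody library, 2.86% in CAF.CM, 1.76% in Wnt2 and 1.38% in control. The structured RNA Rn7sk, also not polyadenylated, stood at 22869 CPM in the antibody library, 20542 in CAF.CM, 19806 in Wnt2 and 18994 in control. These 3 measures ran in 1 order over the libraries, and so did the RNAs Neat1 and Rpph1. Neat1 had 3449 CPM in the antibody library, 2034 in CAF.CM, 1793 in Wnt2 and 1587 in control. Rpph1 had 7503 CPM in the antibody library, 6802 in CAF.CM, 6724 in Wnt2 and 6521 in control. Other measures did not run in this order. Rmrp, another structured RNA, stood at 2380 CPM in the antibody library, 2123 in CAF.CM, 1791 in Wnt2 and 2248 in control. The 14 mitochondrial genes took 4.11% of the reads in the antibody library, 4.27% in CAF.CM, 6.10% in Wnt2 and 5.28% in control. The part of these differences in the cluster histone values was not tested.

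Linker histone H1 genes came to different shares of the cluster reads in the 4 libraries. H1 binds the DNA between nucleosomes and helps compact chromatin. The 5 cluster H1 genes summed to 453 CPM in the antibody library, 286 in CAF.CM, 322 in Wnt2 and 228 in control. They took 38.2% of the cluster reads in the antibody library, 30.8% in CAF.CM, 32.4% in Wnt2 and 26.7% in control. Without them the remaining 43 cluster genes had summed ratios of 0.10 with Wnt2, 0.04 with CAF.CM and 0.19 with the antibody.

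Hist1h1e (chr13:23620629-23622558, minus strand), the H1.4 gene, had 159 CPM in the antibody library, 81.5 in CAF.CM, 76.3 in Wnt2 and 44.2 in control. The antibody library was highest and control lowest, and its ratio was 0.79 with Wnt2 (interval 0.74 to 0.83), 0.88 with CAF.CM (0.81 to 0.95) and 0.96 with the antibody (0.88 to 1.04), short of 2-fold each time. In the authors' deposited table its adjusted p-value was 0.00167 for Wnt2, 0.000163 for CAF.CM and 0.000251 for the antibody, from a test whose assumed spread is not known here. Its annotated exons overlap those of Hist1h2be on the same strand, and 34.7% of its 31-base words occur in another gene, so some of its reads could belong to that neighbour.

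Hist1h1c, the H1.2 gene and the cluster gene with the most reads, had 234 CPM in the antibody library, 159 in CAF.CM, 184 in Wnt2 and 145 in control. Its ratio was 0.35 with Wnt2, 0.14 with CAF.CM and 0.56 with the antibody, and only 11.4% of its words were shared. Hist1h1d, the H1.3 gene, had 53.4 CPM in the antibody library, 39.4 in CAF.CM, 53.4 in Wnt2 and 33.9 in control. Wnt2 and antibody cells thus stood at the same level for this gene. Hist1h1b and Hist1h1a, the H1.5 and H1.1 genes, stayed under 5 CPM in all libraries, and with CAF.CM Hist1h1b had the 1 H1 ratio below 0 (-0.55). All 5 H1 genes lay above 0 with Wnt2 (median 0.66) and with the antibody (0.56), and 4 of 5 with CAF.CM (0.22), and this held under every scaling tried.

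**Figure D2:**
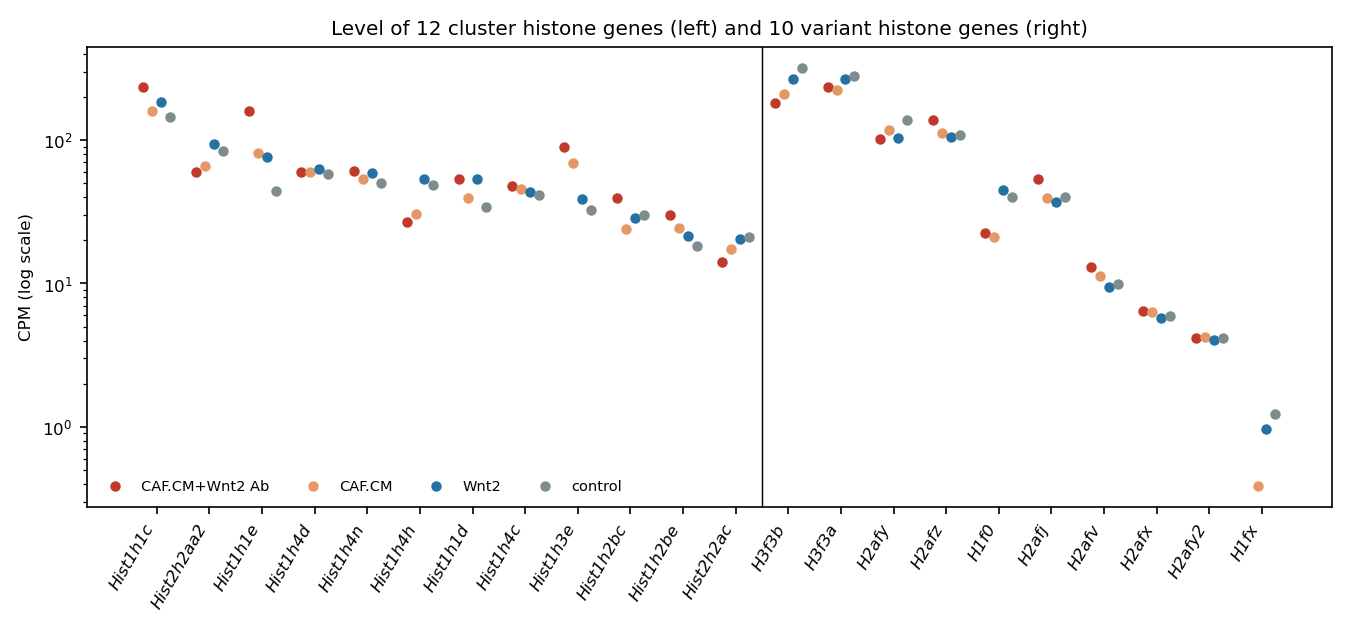
CPM (y axis, log scale) of the 12 cluster genes with the most reads, left of the line, and of the 10 variant genes, right of it; each point is 1 library, coloured by group. Hist1h1e stands at 159 CPM in the antibody library and 44.2 CPM in control, whereas H3f3b is highest in control at 318 CPM; H1fx has no antibody point because that table does not list it.

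With Wnt2, no cluster gene passed 2-fold in either direction. All 49 listed members lay between -0.62 and 0.79, against a background of 2.87% of all listed genes called higher and 2.93% called lower. Their median was 0.07, and 29 of 49 lay above 0, against 47% of all listed genes. The counting interval lay above 0 for 23 members (34.8% of all listed genes) and below 0 for 8 (40.9%). In the authors' deposited table, 4 cluster genes were higher and 1 lower at an adjusted p-value under 0.05, against 7.36% and 8% of all listed genes. At 1.5-fold, 4 cluster genes were higher and 1 lower with Wnt2, against 7.38% and 8% of all listed genes.

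Hist1h2ap, an H2A gene, had 6.38 CPM in the antibody library, 2.80 in CAF.CM, 8.60 in Wnt2 and 5.01 in control, with a ratio of 0.78 for Wnt2 against control. Its copy Hist1h2ao, which holds 93.4% of its words, had 5.82 CPM in the antibody library, 4.15 in CAF.CM, 5.63 in Wnt2 and 7.06 in control, a ratio of -0.33 with Wnt2. These copies lay on opposite sides of 0 with Wnt2. The group of 9 Hist1h2a copies summed to 42.4 CPM in Wnt2 and 41.3 in control, a ratio of 0.04. The unlisted copies Hist1h2af, Hist1h2ag and Hist1h2ah are not in this sum.

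Hist2h2be, an H2B gene known in mouse from olfactory neurons and 1 of the few members with little shared sequence (2.82% of words), had 6.21 CPM in the antibody library, 4.92 in CAF.CM, 7.07 in Wnt2 and 10.9 in control. Its ratio of -0.62 was the lowest of the cluster genes with Wnt2 (interval -0.74 to -0.51). Its divergent neighbour Hist2h2ac, which starts 239 bases away, had a ratio of -0.06.

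With CAF.CM, 2 cluster genes were called higher and 1 lower of 50 listed, against a background of 6.68% higher and 8.69% lower. The median was 0.11, and 30 of 50 lay above 0, against 46.7% of all listed genes. The counting interval lay above 0 for 19 members (32.5% of all listed genes) and below 0 for 14 (40.3%). In the authors' deposited table, 7 cluster genes were higher and 5 lower at an adjusted p-value under 0.05, against 13.9% and 18.8% of all listed genes. At 1.5-fold, 7 cluster genes were higher and 5 lower, against 13.8% and 17.9% of all listed genes. Hist1h3e, a replication-type H3 gene (chr13:23561534-23562369, minus strand), had 90.0 CPM in the antibody library, 68.8 in CAF.CM, 38.7 in Wnt2 and 32.7 in control. Both libraries with CAF.CM stood above both without it, and the gene was 2.10-fold higher in CAF.CM than in control (ratio 1.07, interval 0.99 to 1.15). Hist1h3f, a neighbour that holds 75.2% of its words, had 26.4 CPM in the antibody library, 22.4 in CAF.CM, 13.3 in Wnt2 and 12.8 in control, a ratio of 0.80 with CAF.CM.

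Division of reads among the 6 Hist1h3 copies listed in all tables does not enter their sum. Division with unlisted copies could, such as Hist1h3b, which has 51.5% of its words in Hist1h3h. The 6 Hist1h3 copies together had 153 CPM in the antibody library, 119 in CAF.CM, 77.6 in Wnt2 and 68.9 in control. Their summed ratio was 0.78 with CAF.CM (interval 0.72 to 0.84), 0.37 with the antibody and 0.17 with Wnt2. All 7 cluster H3 genes lay above 0 with CAF.CM, with a median of 0.27, under each scaling tried.

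Hist1h4i, an H4 gene, had 13.4 CPM in the antibody library, 10.3 in CAF.CM, 6.87 in Wnt2 and 5.10 in control. It was 2.01-fold higher in CAF.CM (ratio 1.01, interval 0.81 to 1.22), right at the threshold. Other H4 genes had different values. Hist1h4h had 26.9 CPM in the antibody library, 30.3 in CAF.CM, 53.2 in Wnt2 and 48.3 in control, a ratio of -0.67 with CAF.CM. Hist1h4d, the H4 gene with the most reads, stood between 57.6 and 62.5 CPM in all 4 libraries. The 12 H4 genes summed to 273 CPM in the antibody library, 260 in CAF.CM, 295 in Wnt2 and 270 in control, and the sign of their CAF.CM ratio (-0.05) turned to 0.01 with total reads as the scaling.

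Hist2h2be was the cluster gene called lower with CAF.CM, 2.21-fold (ratio -1.14, interval -1.42 to -0.89). H2A genes also lay mostly below 0 with CAF.CM. Of 14 listed, 4 lay above 0, and the median was -0.30. The 13 listed in all tables summed to 147 CPM in CAF.CM against 180 in control. Median and summed ratio kept their sign under each scaling. Hist1h2ab had 3.42 CPM in CAF.CM and 6.05 in control (-0.82), and Hist1h2ac, an exception, had 11.9 CPM in CAF.CM and 7.99 in control (0.58).

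The transcript models divide the CAF.CM values by how the annotated mRNA ends. The 18 cluster genes whose model runs more than 60 bases past the stem-loop summed to 598 CPM in CAF.CM and 477 in control, a ratio of 0.33 (interval 0.30 to 0.35). The 16 whose model ends within 60 bases of it summed to 239 CPM in CAF.CM and 283 in control, a ratio of -0.25 (-0.29 to -0.21). The 14 with no stem-loop in the model had a ratio of -0.05. The medians per gene with CAF.CM were 0.20 for longer models and -0.16 for short models. With the antibody the sums and the medians ran in different orders. The summed ratio was 0.47 for longer models and 0.07 for short models, but the median was 0.32 over 18 longer models, with 0 called higher, and 0.48 over 17 short models, with 4 called higher and 1 lower. Over all listed genes, 1.02% were called higher and 3.65% lower with the antibody. With Wnt2 the summed ratio was 0.32 for longer models (interval 0.30 to 0.33) and 0.12 for short models (0.10 to 0.14). Both Wnt2 medians were 0.13. The longer models include Hist1h1c, Hist1h1d, Hist1h1e and Hist1h3e, so their sums overlap with the H1 and H3 values described above. This split was chosen after the values were seen, the models come from the annotation and not from these libraries, and whether longer transcripts were made here was not measured.

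With the antibody, 5 cluster genes were called higher and 1 lower of 52 listed, against a background of 1.02% higher and 3.65% lower. The median was 0.31, and 40 of 52 lay above 0, against 45.2% of all listed genes. The counting interval lay above 0 for 29 (21.5% of all listed genes) and below 0 for 7 (29.2%). In the authors' deposited table, 9 cluster genes were higher and 1 lower at an adjusted p-value under 0.05, against 1.42% and 5.55% of all listed genes. At 1.5-fold, 13 cluster genes were higher and 3 lower, against 4.4% and 10.7% of all listed genes. The 5 called higher rest on few reads, since the antibody and CAF.CM libraries are the shallow ones. With at least 100 reads in 1 library 3 were called higher, and among the 10 cluster genes with under 20% shared words none was called in either direction.

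Hist1h2bf, an H2B gene (chr13:23573736-23574196, minus strand), had 6.51 CPM in the antibody library, 2.61 in CAF.CM, 2.72 in Wnt2 and 2.51 in control. The antibody library stood above the other 3, which lay close together, and the ratio of 1.29 over CAF.CM (interval 0.89 to 1.75) rests on 151 reads in the antibody library and 68 in CAF.CM. Hist1h2ad, the H2A gene that starts 185 bases away in the opposite direction, had 4.83 CPM in the antibody library, 2.23 in CAF.CM, 1.89 in Wnt2 and 1.97 in control. In both genes of this pair, which shares the short region printed above, the antibody library was at the top, while the order of the other 3 libraries differed. Together they had 11.3 CPM in the antibody library and 4.84 in CAF.CM, a ratio of 1.23 (interval 0.92 to 1.55). Hist1h2bf shares 73.5% of its words with other genes and Hist1h2ad 68.3%. Reads could therefore be divided with genes outside this pair, which the sum does not remove.

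Some other divergent pairs also had close ratios with the antibody. Hist1h2ac had 0.93 and its partner Hist1h2bc 0.72, Hist1h2ae had 0.35 and its partner Hist1h2bg 0.26, and Hist1h2bl had 0.16 and its partner Hist1h2ai 0.09. The Hist1h2bl ratio rests on 30 reads in each library. With CAF.CM, Hist1h2ac and Hist1h2bc lay on opposite sides of 0 (0.58 and -0.32). Other pairs had antibody ratios further apart or of opposite sign. Hist1h2ak had -0.16 and its partner Hist1h2bn 0.16, and Hist2h2ac had -0.29 and its partner Hist2h2be 0.33. Hist1h2ap had 1.16, with 6.38 CPM in the antibody library and 2.80 in CAF.CM, while its partner Hist1h2br had 0.50. Hist1h2bp was 2.29-fold higher on 29 reads in the antibody library and 13 in CAF.CM, and its partner Hist1h2an had -0.65. Hist1h2bq, at 36 reads in the antibody library and 19 in CAF.CM, had 1.01 and shares 98.3% of its words with Hist1h2br, so reads could be assigned to either.

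As a class, all 15 listed H2B genes lay above 0 with the antibody, between 0.16 and 1.29 and with a median of 0.56, under every scaling tried. The 11 listed in all tables summed to 145 CPM in the antibody library, 101 in CAF.CM, 98.7 in Wnt2 and 96.0 in control, so the antibody library stood above the other 3, which lay close together. Hist1h2bc, the H2B gene with the most reads, had 39.6 CPM in the antibody library, 24.0 in CAF.CM, 28.6 in Wnt2 and 30.1 in control. H4 genes had a median of 0.00 with the antibody, and 6 of 12 lay above 0, a number that was 5 with total reads and 8 with DESeq2 size factors as the scaling.

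**Figure D3:**
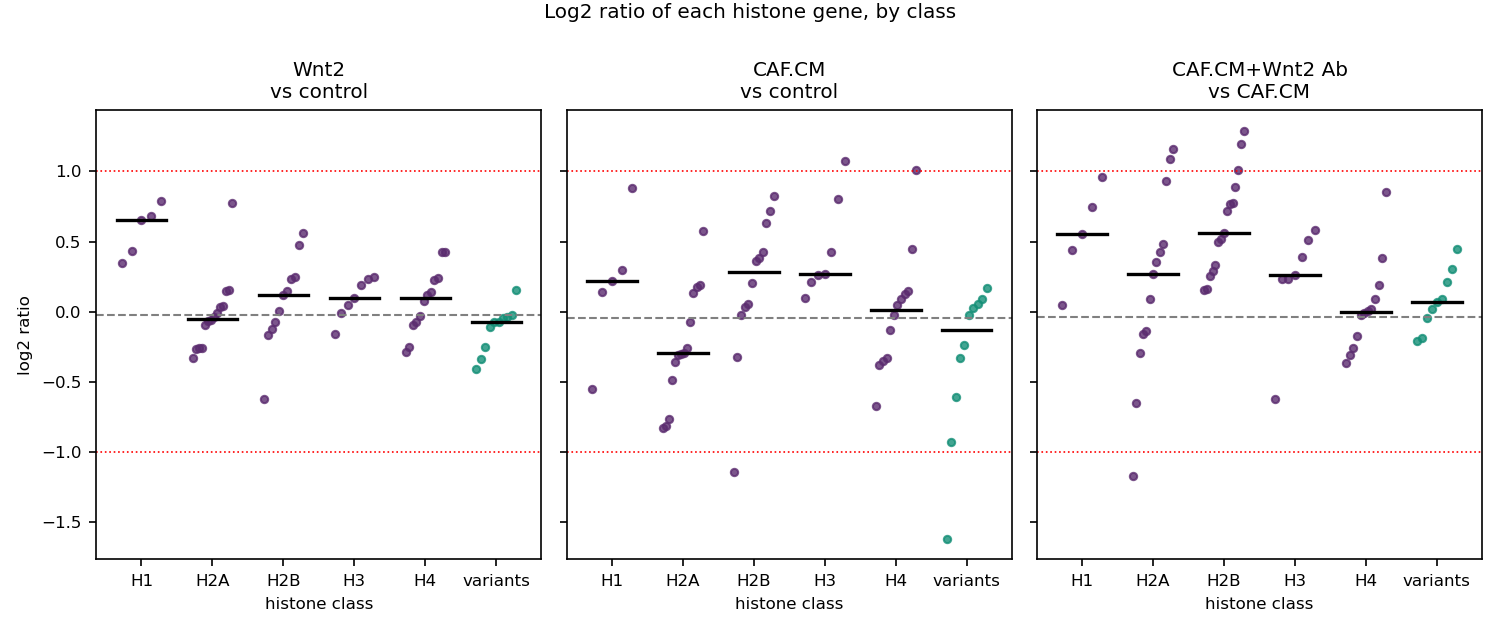
Log2 ratio (y axis) of each listed histone gene by class, in 1 panel per comparison; each point is 1 gene, black bars are class medians, the dashed line is the median of all listed genes and dotted red lines mark 2-fold. All 15 H2B genes lie above 0 with the antibody (median 0.56), and all 5 H1 genes lie above 0 with Wnt2 (median 0.66).

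Hist2h2aa1, an H2A gene of the smaller cluster on chromosome 3, was called lower with the antibody. It had 6.25 CPM in the antibody library, 14.2 in CAF.CM, 19.4 in Wnt2 and 17.5 in control, a ratio of -1.17 (interval -1.47 to -0.90). Its copy Hist2h2aa2, all of whose words occur in Hist2h2aa1, had 59.8 CPM in the antibody library, 65.7 in CAF.CM, 93.5 in Wnt2 and 84.1 in control, a ratio of -0.13. Together the copies had 66.1 CPM in the antibody library, 79.8 in CAF.CM, 113 in Wnt2 and 102 in control. Their summed ratio was -0.27, so the call does not hold for the pair. Hist2h2aa1 also shares 89.7% of its words with Gm20634, a gene overlapping it on the same strand. Reads could be assigned to that gene too, which was not tested. Genes of the chromosome 3 cluster (Hist2) had a median of -0.26 with the antibody over 7 genes, and Hist1 genes of chromosome 13 one of 0.39 over 43.

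**Figure D4:**
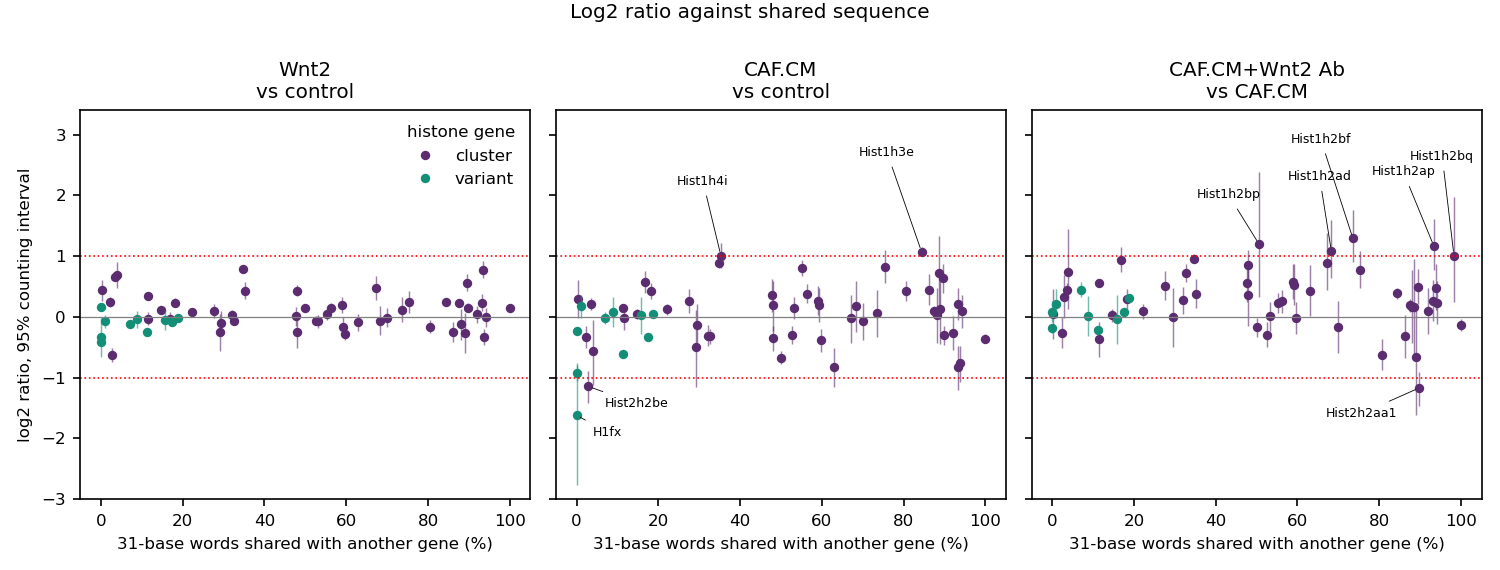
Log2 ratio with its 95% counting interval (y axis) against the percentage of a gene's 31-base words found in another gene (x axis), in 1 panel per comparison; named points are those called at 2-fold, and Hist1h2bm is left out because its identifier was not matched in the annotation. Every cluster gene called except Hist2h2be (2.82%) shares at least 35.3% of its words, and Hist2h2aa1 shares 89.7%.

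Variant genes had no call with Wnt2 or with the antibody. With CAF.CM, 1 of 10 was called lower, against 8.69% of all listed genes. The gene called was H1fx, a linker histone gene, at 0.384 CPM in CAF.CM, 0.97 in Wnt2 and 1.23 in control. It was not listed with the antibody. Its 3.07-fold lower level in CAF.CM (ratio -1.62, interval -2.76 to -0.77) rests on 10 reads in CAF.CM. H1f0, the linker histone that accumulates in differentiated, non-dividing cells, had 22.4 CPM in the antibody library, 21.1 in CAF.CM, 44.7 in Wnt2 and 40.1 in control. Both libraries with CAF.CM stood below both without it, and the CAF.CM ratio of -0.93 (interval -1.06 to -0.80) fell short of 2-fold. The summed ratio of the cluster H1 genes with CAF.CM, 0.33, had the opposite sign.

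The H3.3 genes carried most variant reads. H3f3b had 181 CPM in the antibody library, 209 in CAF.CM, 268 in Wnt2 and 318 in control, and its ratio to control was -0.25 with Wnt2 and -0.61 with CAF.CM. H3f3a, which encodes the same protein, had 234 CPM in the antibody library, 223 in CAF.CM, 265 in Wnt2 and 280 in control. With CAF.CM the variant H3 sum had a ratio of -0.47, against 0.74 for the cluster H3 sum. On the scale of CPM per kilobase of exon, the 7 cluster H3 genes together had 208 in the antibody library and 111 in control, and the 2 variant H3 genes together had 128 in the antibody library and 187 in control.

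H2afz, the H2A.Z gene, had 138 CPM in the antibody library, 112 in CAF.CM, 106 in Wnt2 and 108 in control. H2afj, an H2A variant linked to cellular senescence, had 53.5 CPM in the antibody library, 39.2 in CAF.CM, 36.9 in Wnt2 and 39.8 in control. In both genes the antibody library stood above 3 libraries that lay close together, with antibody ratios of 0.30 for H2afz and 0.45 for H2afj. H2afy, the macroH2A1 gene, had 102 CPM in the antibody library, 117 in CAF.CM, 104 in Wnt2 and 137 in control. H2afv, H2afx and H2afy2 differed by at most 0.21 in any comparison.

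Genes that act on histone mRNA or histones had 1 call. The list of 26 genes for histone mRNA processing and transcription had 26 listed with Wnt2, 25 with CAF.CM and 26 with the antibody, and the 1 call was Cpsf3, the endonuclease that cuts histone pre-mRNA after the stem-loop. Cpsf3 had 15.6 CPM in the antibody library against 33.9 in CAF.CM, a ratio of -1.12. Slbp had 22.6 CPM in the antibody library, 24.8 in CAF.CM, 34.9 in Wnt2 and 34.2 in control, and Npat, which activates cluster histone transcription, had 35.5 CPM in the antibody library, 31.2 in CAF.CM, 31.4 in Wnt2 and 28.5 in control. None of the 27 genes for histone chaperones and deposition was called in any comparison. Of all listed genes, 2.87% were called higher and 2.93% lower with Wnt2, 6.68% and 8.69% with CAF.CM, and 1.02% and 3.65% with the antibody.

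Cell cycle genes were called in both directions against control. Of the S phase list, Pcna, the DNA polymerase clamp, had 46.2 CPM in CAF.CM, 52.4 in Wnt2 and 120 in control, and was called lower in both comparisons with control. It was the 1 S phase call of 30 listed with Wnt2, where 2.87% of all listed genes were called higher and 2.93% lower. With CAF.CM, 2 of 31 were higher (Ccne2 1.47, Cdc6 1.33) and 3 lower (Pcna -1.37, E2f2 -1.28, Gins1 -1.65). These CAF.CM counts lie near the share of all listed genes, 6.68% called higher and 8.69% called lower. Ccne2, a cyclin of the entry into S phase, had 11.0 CPM in the antibody library, 4.99 in CAF.CM and 1.79 in control. With Mcm10 it made 2 of 29 called higher with the antibody, against 1.02% of all listed genes.

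Of the G2 and mitosis list, 6 of 16 were called higher with CAF.CM and 0 lower, against 6.68% and 8.69% of all listed genes. The list median was 0.84. Among the 6 were Ccnb1 (1.79) and Bub1 (1.41), at levels of at most 4.15 CPM in CAF.CM. With Wnt2, 2 of 14 were higher (Mki67 1.31, Bub1 1.08), against 2.87% of all listed genes, and the list median was -0.35. With the antibody, 2 of 16 were higher, against 1.02% of all listed genes. These were Kif11, with 5.86 CPM in the antibody library and 2.69 in CAF.CM, and Nusap1, with 7.11 and 3.38. Mki67, the Ki-67 gene, had 16.5 CPM in the antibody library and 27.5 in CAF.CM, a ratio of -0.73. The part of cycling cells in the histone values was not tested.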

How the data were processed

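The authors deposited 1 table per comparison with normalized CPM, log2 fold changes, log2 mean CPM, p-values and adjusted p-values, per the file headers. Per the submitters' processing notes, the tools were STAR 2.4.2a, RSEM 1.2.29 and edgeR and the builds mm10 and GRCm38.p5. Use of strand in counting and division of reads among identical copies: not given in the sources used here. Libraries were made from 1 ug of RNA with a stranded total RNA kit after removal of ribosomal RNA, per the labels' protocols. Genes below about 1 CPM in both libraries of a table are missing from it, so an unlisted gene is not shown to be silent.

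Reads were recovered as whole multiples of the CPM step of each library (0.0431 in the antibody library, 0.0384 in CAF.CM, 0.00651 in Wnt2 and 0.00706 in control), with 100% of values whole within 0.1 step; libraries present in 2 tables were identical in both. Ratios are from edgeR 4.0.16 (R 4.3.3) log2 CPM, using the authors' library sizes and adding a prior count of 2. No count test was run, because 1 library per group leaves no estimate of spread. Intervals used scipy 1.17.1, and matplotlib 3.10.9, pandas 2.3.3 and numpy 2.4.6 in Python 3.11.15 made tables and plots. The steps were tested on simulated data. Positions and 31-base words came from all GENCODE M21 transcripts (GRCm38), which matched 62 of 63 members. Promoter windows are from RefSeq, GRCm38.p6.

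The members and gene lists were chosen with earlier results of these data known. Named genes are all variants, the 12 cluster genes with most reads, and up to 6 per direction and comparison with at least 50 reads, taken largest first; others were added for their copies, partners or class after their values were seen. Of the lists, up to 4 genes with at least 200 reads and the largest ratios fall under the rule, and the other list genes named were chosen after their values were seen. Alternatives were DESeq2 1.42.0 size factors, total reads, prior counts of 0.5 and 5, a minimum of 100 reads, a 1.5-fold threshold, the deposited log2 fold changes, members under 20% shared words, sums without the 3 members with most reads, and own TMM factors, added after seeing the data.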

Additional observations from a re-analysis of the deposited data

How the results depend on the processing

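Every ratio rests on 1 library per group, so the spread between cultures is unknown, and in the shallower antibody and CAF.CM libraries cluster genes near 1 CPM rest on few reads. No paired analysis was possible because each group has 1 library. At a 1.5-fold threshold, Wnt2 had 4 cluster genes higher and 1 lower (7.38% and 8% of all listed genes), 7 higher and 5 lower with CAF.CM (13.8% and 17.9%), and 13 higher and 3 lower with the antibody (4.4% and 10.7%), and 3 variant genes were lower with CAF.CM (17.9% of all listed genes). With at least 100 reads in 1 library, 3 cluster genes were higher with the antibody. Among cluster genes under 20% shared words, 0 were higher with CAF.CM, 0 higher and 0 lower with the antibody, and the Wnt2 median was 0.24; fewer genes were tested there. The summed cluster ratio with Wnt2 was 0.24 with DESeq2 size factors, 0.24 with own TMM factors, 0.14 without the 3 genes with most reads and 0.29 under 20% shared words. With CAF.CM it was 0.16 with DESeq2 size factors, 0.18 with total reads, 0.17 with own TMM factors and 0.10 without those 3 genes. With the antibody it was 0.39 with DESeq2 size factors, 0.39 with own TMM factors, 0.24 without those 3 genes and 0.40 under 20% shared words. Of 130 ratios of named genes, none changed direction as a called value, and only Hist1h2bq lost its call, with a prior count of 5 and with total reads. Ratios short of 2-fold did change sign, 4 with DESeq2 size factors, 4 with own TMM factors and 4 with total reads. H2afj, Hist1h2bj and Hist4h4 with CAF.CM were among them each time. Scalings moved the median of all genes by at most 0.06.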
